A study of Mus musculus with 4 samples.

Results

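The genes described here are 10 components of, or signalling proteins attached to, the muscle Z-disc: the 3 muscle ankyrin repeat genes Ankrd1, Ankrd2 and Ankrd23, the LIM-domain genes Csrp3, Ldb3 and Fhl1, the titin cap gene Tcap, the myozenin genes Myoz1 and Myoz2, and the alpha-actinin gene Actn3. They were taken by symbol from a table of 17904 genes. Ankrd23 was chosen by its intensities on these same 4 arrays, which were lower in transgenic muscle, so its difference between the groups is given as a description without a test. The others were listed for what they encode. All 10 were above the background level of 90.3 intensity units on all 4 arrays, and so belonged to the 7779 genes that exceeded it on at least 2 arrays and were tested.

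The samples were total RNA of quadriceps, a thigh muscle made up mostly of fast fibres in mice, from CD-1 males aged 5 weeks. There were 2 samples labelled Lin28A Tg and 2 labelled WT, each read on 1 Illumina Ref-8 bead array. Lin28A binds RNA and keeps let-7 microRNAs from maturing. The labels give neither the promoter that drives the transgene nor the founder line, and no treatment of either group. They number the samples without saying whether each is 1 animal. The p-values therefore speak of the spread among 4 arrays, a number that also limits precision.

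The Lin28a row was below background on every array, at 86.4 and 88.0 in Lin28A Tg and 82.9 and 82.6 in WT, so it does not check the labels. All 8 skeletal muscle markers looked for (among them Ckm, Acta1, Mb and Des) were above background. WT replicate 1 carried transcripts of liver: over the 3 of 12 hepatocyte markers that were tested (Apoa1, Apoc3 and Mup3) the summed intensity was 290 and 336 in Lin28A Tg and 6661 and 260 in WT replicates 1 and 2. Of the other 9 hepatocyte markers, Apoa2, Ttr, Ahsg, Hpx and Serpina1c were above background on WT replicate 1 alone, with Apoa2 at 5506 there. Alb, Apoh, Fgb and Tat were below background on every array. The summed intensity of the tested slow-fibre markers was highest on WT replicate 2, as given below. Of these markers, Sln, Casq2 and Tpm3 were highest on other arrays.

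The Z-disc is the plate at each end of a sarcomere into which thin filaments are anchored by alpha-actinin and titin by its N-terminus. The muscle ankyrin repeat proteins bind titin in the spring part of the molecule, and are known as genes whose expression responds when muscle is stretched, injured or denervated. They also enter the nucleus, as do the muscle LIM protein encoded by Csrp3 and the protein of Fhl1, which is why the Z-disc is often described as a place where mechanical load is sensed. Myozenins, also called calsarcins, tether the phosphatase calcineurin to alpha-actinin.

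RefSeq promoter windows (GRCm38.p6, 250 bases before to 50 after a transcript start, read 5′ to 3′ on the gene's strand) were found for 7 of the 10 genes. Of these, 6 windows are shown, for the 3 ankyrin repeat genes, whose arrays differed from one another, and for Csrp3 and Myoz2, because Myoz2 was the nearest of all tested genes to Csrp3. They are Ankrd23 at its outer start (chr1:36536507-36536806, minus strand) and inner start (chr1:36535690-36535989, minus), Ankrd1 (chr19:36119795-36120094, minus), Ankrd2 (chr19:42035777-42036076, plus), Csrp3 at its outer start (chr7:48848002-48848301, minus) and Myoz2 (chr3:123034938-123035237, minus). Capitals mark matches, on either strand, to the M-CAT element CATTCC, the E-box CANNTG, the MEF2 site or the CArG box. No 2 matches overlapped in these windows.
Ankrd23 outer start: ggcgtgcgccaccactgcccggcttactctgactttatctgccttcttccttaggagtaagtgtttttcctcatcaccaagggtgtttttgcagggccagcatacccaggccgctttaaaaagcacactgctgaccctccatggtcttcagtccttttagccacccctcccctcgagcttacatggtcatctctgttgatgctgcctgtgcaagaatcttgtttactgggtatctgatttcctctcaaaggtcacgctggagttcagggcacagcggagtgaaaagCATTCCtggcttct
Ankrd23 inner start: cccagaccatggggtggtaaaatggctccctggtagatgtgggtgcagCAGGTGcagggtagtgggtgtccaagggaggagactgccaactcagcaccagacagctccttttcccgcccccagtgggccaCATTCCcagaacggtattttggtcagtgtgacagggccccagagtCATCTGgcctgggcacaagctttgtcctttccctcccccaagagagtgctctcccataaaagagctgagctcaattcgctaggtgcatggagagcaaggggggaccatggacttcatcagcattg
Ankrd1: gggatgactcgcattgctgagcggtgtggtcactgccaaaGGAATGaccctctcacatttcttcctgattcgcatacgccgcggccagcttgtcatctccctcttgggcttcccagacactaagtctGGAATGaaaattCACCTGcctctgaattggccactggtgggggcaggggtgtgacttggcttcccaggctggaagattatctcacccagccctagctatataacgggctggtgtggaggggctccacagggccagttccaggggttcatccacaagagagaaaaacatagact
Ankrd2: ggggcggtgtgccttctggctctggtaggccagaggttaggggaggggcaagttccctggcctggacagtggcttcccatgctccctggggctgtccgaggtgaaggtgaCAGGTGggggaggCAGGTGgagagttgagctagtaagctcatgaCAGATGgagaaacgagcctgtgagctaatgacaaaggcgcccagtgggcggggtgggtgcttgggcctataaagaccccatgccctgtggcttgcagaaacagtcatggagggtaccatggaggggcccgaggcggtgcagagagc
Csrp3 outer start: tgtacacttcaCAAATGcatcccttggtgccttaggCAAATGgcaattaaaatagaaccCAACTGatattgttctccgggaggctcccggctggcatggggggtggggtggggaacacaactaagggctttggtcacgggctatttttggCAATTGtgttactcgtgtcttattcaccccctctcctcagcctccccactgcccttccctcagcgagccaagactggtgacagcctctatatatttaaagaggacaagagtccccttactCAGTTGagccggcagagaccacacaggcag
Myoz2: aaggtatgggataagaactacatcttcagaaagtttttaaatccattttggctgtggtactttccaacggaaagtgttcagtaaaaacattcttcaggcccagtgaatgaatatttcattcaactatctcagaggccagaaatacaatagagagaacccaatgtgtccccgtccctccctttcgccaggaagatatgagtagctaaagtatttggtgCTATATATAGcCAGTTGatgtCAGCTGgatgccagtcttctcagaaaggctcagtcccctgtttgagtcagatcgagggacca

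M-CAT elements, which TEAD factors bind, matched at 2 places in the Ankrd1 window, from positions -210 and -123 relative to the start, and once in each Ankrd23 window, from 37 and -120. The Ankrd2, Csrp3 and Myoz2 windows held none of these letters. Of 32851 mouse promoter windows of the same length, 14.7% held a match. The Myoz2 window had a MEF2 site from -33, a motif found in 3.19% of windows, and 2 E-boxes just after it, from -22 and -12. E-boxes, which myogenic bHLH factors bind, were in 72.3% of all windows, and there were 3 in Ankrd2 and 5 in the Csrp3 window shown. A CArG box, which serum response factor binds, was in both of the overlapping Ldb3 windows and in 1 of 2 Fhl1 windows, and in 1.63% of all. These matches describe the letters of the windows only, and no binding was measured.

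Ankrd23 encodes the muscle ankyrin repeat protein also known as DARP. Its row read 1552 and 1464 intensity units in Lin28A Tg replicates 1 and 2, and 2051 and 2369 in WT replicates 1 and 2. Both transgenic arrays were below both WT arrays, which is the pattern for which the gene was chosen. The means were 1508 ± 62.6 in Lin28A Tg and 2209.8 ± 225 in WT (SD, n = 2 each), a fold of 0.684 and a log2 difference of -0.55 (SE 0.09). Over all genes tested, 0.797% had a log2 difference of -0.5 or below, 50 genes were more negative than Ankrd23, and 16.7% lay below WT on both transgenic arrays, so that nothing is read from the separation itself. In muscle as bulk tissue, fewer cells of a type and less RNA per cell cannot be told apart. The array's annotation draws this probe from a set other than RefSeq (MEEBO) and gives it no chromosome, so its identity rests on the symbol.

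**Figure D1:**
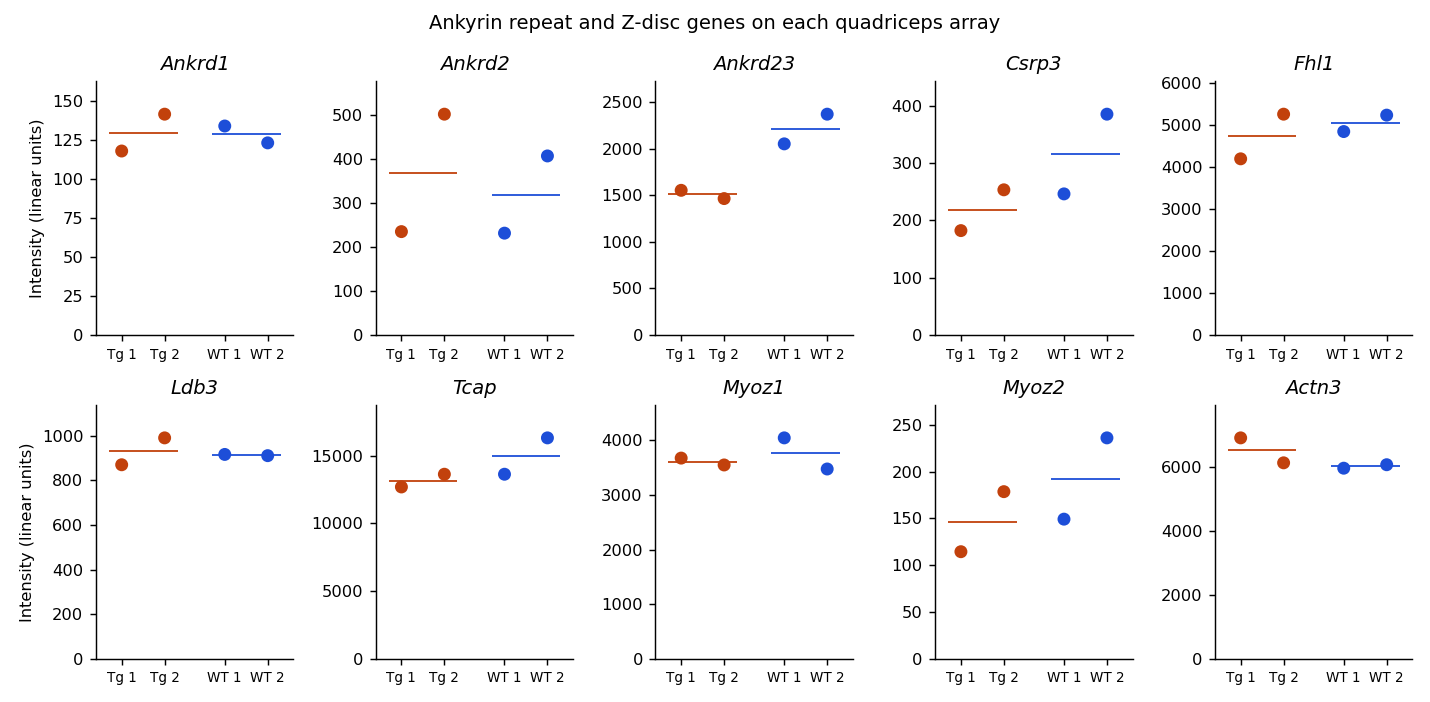
Intensity (linear units, each panel from 0) of the 10 genes on the Lin28A Tg and WT arrays, with a line at each group's mean. Ankrd23 is the gene with both transgenic arrays below both WT arrays, Actn3 the one with both above, and for Ankrd2, Csrp3 and Myoz2 the arrays within a group lie far apart.

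Ankrd1 and Ankrd2, the other muscle ankyrin repeat genes, did not share the values of Ankrd23. Ankrd1 encodes CARP, abundant in heart and low in resting limb muscle. It read 118 and 142 in Lin28A Tg and 134 and 123 in WT. The WT values lay between the transgenic ones, and the log2 difference was 0.01 (95% interval -0.30 to 0.32). These readings were close to the background mode of 84.9, so a difference in the RNA would appear smaller here than it was.

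Ankrd2 encodes Arpp, which in rodents is found mainly in slow fibres. It read 235 and 502 in Lin28A Tg and 232 and 407 in WT. Each group held 1 low and 1 high array, and replicate 2 of each was the high one, at 2.13-fold over replicate 1 in Lin28A Tg and 1.76-fold in WT. The difference between the groups was 0.16 on the log2 scale (SE 0.47, 95% interval -1.10 to 1.43), with the sign turned by leaving out Lin28A Tg replicate 2 (-0.39) or WT replicate 1 (-0.24). Only 0.81% of tested genes had a larger standard error.

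The LIM-domain genes also differed from one another. Csrp3 encodes muscle LIM protein, a Z-disc and nuclear protein of heart and slow fibres. It read 182 and 253 in Lin28A Tg and 246 and 385 in WT. The highest transgenic value was above the lowest WT value, so the groups overlapped by a narrow margin. The log2 difference was -0.52 (SE 0.28, 95% interval -1.27 to 0.24), near that of Ankrd23 in size but with a wider standard error (0.09 for Ankrd23). It was -0.20 without WT replicate 2, -0.28 without Lin28A Tg replicate 1 and -0.84 without WT replicate 1.

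Fhl1 encodes a protein built of LIM domains that binds titin's spring. It read 4202 and 5266 in Lin28A Tg and 4852 and 5243 in WT, with both WT values inside the range of the transgenic pair, and the log2 difference was -0.10 (SE 0.13). Ldb3 encodes ZASP, also called Cypher, which joins alpha-actinin to protein kinase C at the Z-disc. It read 870.3 and 991 in Lin28A Tg and 917 and 911 in WT, a log2 difference of 0.02 (95% interval -0.21 to 0.25). Its probe is annotated to 1 transcript variant of several, and the others were not analysed here. For both genes the spread within the transgenic pair was larger than the difference between the groups.

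Tcap encodes telethonin, the cap that holds 2 titin N-termini together. It read 12698 and 13638 in Lin28A Tg and 13638 and 16324 in WT. The higher transgenic and the lower WT array had the same value, so the groups touched without overlapping further. The log2 difference was -0.18 (SE 0.11, 95% interval -0.48 to 0.12), and it was -0.05 without WT replicate 2.

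The myozenin genes parted in their spread rather than in their test. Myoz1 is the form of fast fibres. It read 3673 and 3547 in Lin28A Tg and 4042 and 3473 in WT, so the transgenic pair lay inside the WT range, with a log2 difference of -0.05 (SE 0.09). Myoz2 is the form of slow fibres and heart. It read 114 and 179 in Lin28A Tg and 149 and 236 in WT. The groups overlapped, and in each group replicate 2 was the higher array, by 1.56-fold in Lin28A Tg and 1.58-fold in WT. The log2 difference was -0.39 (SE 0.32, 95% interval -1.26 to 0.47), and it was -0.07 without Lin28A Tg replicate 1 and -0.06 without WT replicate 2. Background correction by normexp with an offset of 16 made it -0.65. Myoz3, the third gene of the family, was below background on all 4 arrays.

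Actn3 encodes the alpha-actinin of fast glycolytic fibres. It read 6927 and 6145 in Lin28A Tg and 5976 and 6085 in WT. Both transgenic arrays were above both WT arrays, but the lower of them by a margin smaller than the spread of either group. The log2 difference was 0.11 (SE 0.08, 95% interval -0.11 to 0.33), and it was 0.03 without Lin28A Tg replicate 1.

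**Figure D2:**
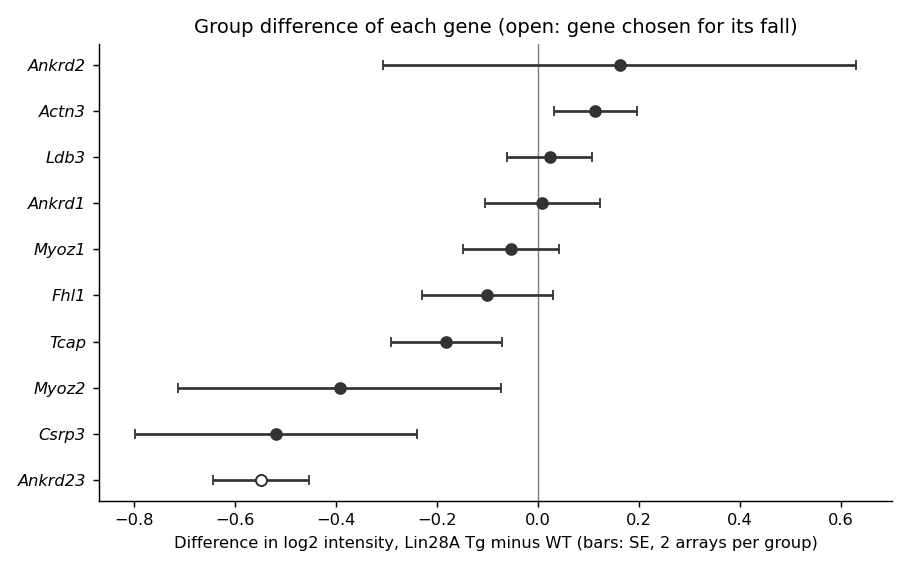
Difference in log2 intensity between Lin28A Tg and WT for each of the 10 genes, with bars of 1 SE from limma over 2 arrays per group and an open point for the gene chosen for its fall. Ankrd23 lies at -0.55 and Csrp3 at -0.52, and the bars of Ankrd2, Myoz2 and Csrp3 are the widest.

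Of the 9 genes other than Ankrd23, 0 passed limma's test at an adjusted p of 0.05 (Benjamini-Hochberg over all 7779 genes), as did 0% of all genes. Their adjusted p-values ran from 0.710 for Csrp3 to 0.995 for Ankrd1. At an unadjusted p under 0.05 the count among the 9 was 0, where 5.06% of all genes were higher and 3.84% lower. Of the 9, 4 had a positive and 5 a negative log2 difference, beside 53.5% and 46.5% of all genes. Actn3 was the 1 gene with both transgenic arrays above both WT arrays, as 21.8% of all genes were, and 0 lay below (16.7%). The median log2 difference of the 9 was -0.05, beside 0.01 over all genes.

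Of the 10 genes, 4 spanned at least 0.5 log2 units between their lowest and highest array, and for 3 of them (Ankrd2, Csrp3 and Myoz2) the 2 arrays of at least 1 group lay farther apart than the group means did. A wider span than that of Ankrd2 was seen in 1.35% of tested genes and than that of Csrp3 in 1.47%. The other 6 genes spanned 0.19 to 0.36. Of the 7778 other genes tested, Myoz2 was the nearest to Csrp3 in its values centred on their mean over the 4 arrays, at a root mean square distance of 0.09 log2 units, and Csrp3 was the third nearest to Myoz2. Both were lowest on Lin28A Tg replicate 1 and highest on WT replicate 2, with the remaining arrays between. So few arrays give little to tell such patterns apart, and no shared control is read from them.

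The genes nearest to Myoz2 by the same measure were Chad, a cartilage matrix protein gene, Fbxo32, which encodes the atrophy ubiquitin ligase atrogin-1, Csrp3, Rgcc and Pla2g12a, at distances of 0.06 to 0.10. After Myoz2, the genes nearest to Csrp3 were Rgcc, Ramp1, Coa6 and Gpt2, at 0.10 to 0.13. Nearest to Ankrd2 were Rsph1, Pdlim1, Bag3, Vgll2 and Hspb1, at 0.09 to 0.16. Pdlim1, Bag3 and Hspb1 encode a Z-disc PDZ-LIM protein, a co-chaperone that clears damaged filamin at the Z-disc, and a small heat shock protein, and Vgll2 a muscle cofactor of TEAD factors. Bag3 read 2567 and 4705 in Lin28A Tg and 2282 and 3740 in WT, with the same low and high arrays as Ankrd2. Nearest to Ankrd23 were Pigp, Cox6c, LOC668837, Sema7a and Psenen, at 0.05 to 0.07. For Ankrd23 the choice of the gene fixed the separation of the groups that these share with it.

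Slow-fibre markers differed between the arrays as well. Of 12 such genes in the table, 8 were above background on at least 2 arrays and were tested. Their summed intensity was 2415 and 4130 in Lin28A Tg and 1559 and 9467 in WT replicates 1 and 2. Of the 8, 4 (Myl2, Myl3, Tnnt1 and Casq2) were, like Ankrd2, Csrp3 and Myoz2, higher on replicate 2 of each group, as were 26.2% of all genes, and the other 4 were not. Myl3 read 371 and 1887 in Lin28A Tg and 196 and 3547 in WT, and Myl2 read 356 and 722 in Lin28A Tg and 320 and 3232 in WT. Among the other 4, Sln, which encodes sarcolipin, read 684 and 444 in Lin28A Tg and 202 and 203 in WT. Myh7 and Tnni1, which define the slow fibre, were below background on all 4 arrays. Fast-fibre markers, 13 of 14 above background, had a summed intensity of 164793 and 167402 in Lin28A Tg and 166337 and 166838 in WT. Most of this sum comes from genes among the brightest, whose values the normalization between arrays made nearly alike. Tnnc2, for instance, read 29565 on Lin28A Tg replicate 1 and on both WT arrays. The evenness of this sum was therefore largely fixed beforehand, and nothing is read from it. Of the 10 genes, 5 were higher on replicate 2 of each group, Tcap and Fhl1 being the others. So were 4 of the 13 fast-fibre markers. In lists described below, so were 12 of 21 other Z-disc genes and 5 of 10 load and stretch response genes. The share was 20% to 40% in the titin partner, M-band, costamere and calcineurin lists. The part of fibre type in the values of Ankrd2, Csrp3 and Myoz2 was not tested.

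**Figure D3:**
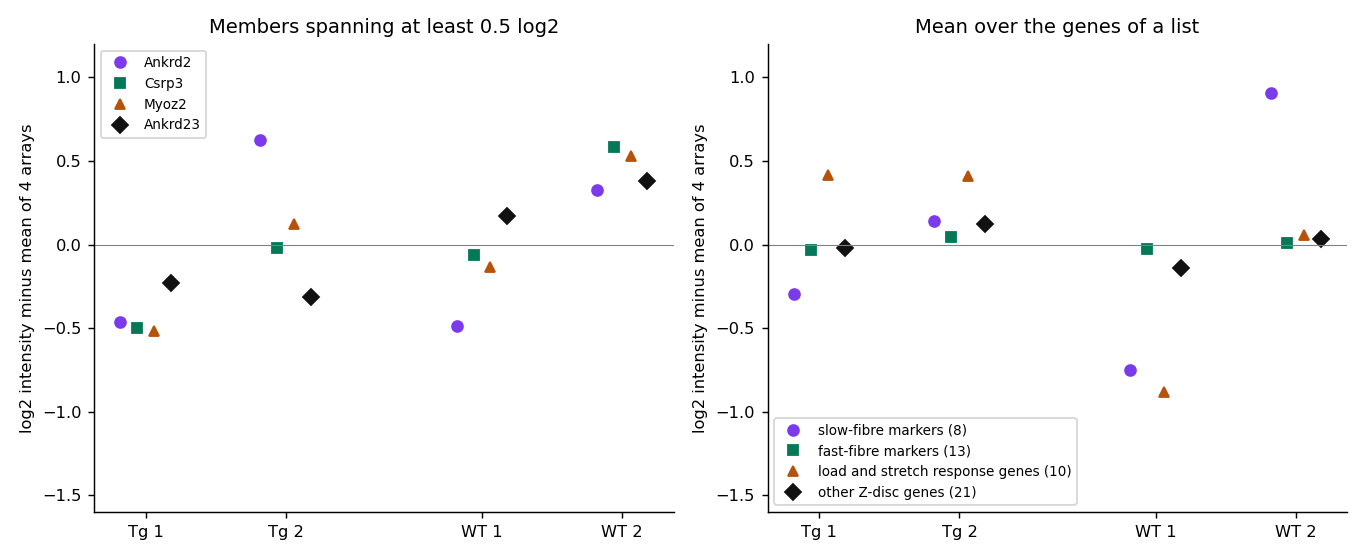
Left, log2 intensity minus the mean over the 4 arrays for the 4 genes that span at least 0.5 log2 units, and right, the same averaged over the genes of 4 lists (number of genes in brackets), on each Lin28A Tg and WT array. Ankrd2, Csrp3 and Myoz2 sit higher on replicate 2 of each group, as does the slow-fibre list, at -0.29 and 0.14 in Lin28A Tg and -0.75 and 0.90 in WT. By smaller amounts, so do the other Z-disc list (-0.02 and 0.12 in Lin28A Tg, -0.14 and 0.03 in WT) and the fast-fibre list (-0.03 and 0.05, -0.03 and 0.01). The load and stretch list does not in Lin28A Tg (0.41 and 0.41).

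The proteins that the Z-disc genes bind were looked at next. Over all 13 gene lists, limma called 0 of 127 tested genes, and 14 of them had an unadjusted p under 0.05, as had 8.91% of all genes. Of 5 genes of titin and ankyrin repeat partners, 4 were tested and 0 were called, with a median log2 difference of 0.06 that was 0.02 without Lin28A Tg replicate 1 or WT replicate 1 and up to 0.11 without Lin28A Tg replicate 2. Ttn, which encodes titin, read 5293 and 3620 in Lin28A Tg and 3034 and 3403 in WT, a log2 difference of 0.45 (SE 0.20; limma adjusted p = 0.645). Both transgenic arrays were above both WT arrays, the lower one narrowly. Mypn, whose product myopalladin binds CARP and titin, was at 0.07, the related Palld at -0.06 and the titin-bound protease gene Capn3 at 0.05. Ybx1 was not analysed here.

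Among 30 other Z-disc genes, 26 were in the table and 21 were tested. None was called, and 14 were positive and 7 negative, beside 53.5% and 46.5% of all genes. On both transgenic arrays 4 were above WT, beside 21.8% of all genes, and 0 below (16.7%). The median log2 difference was 0.08, and it was 0.01 without WT replicate 1 or without Lin28A Tg replicate 2. Actn2, the alpha-actinin of all fibre types, read 4447 and 4620 in Lin28A Tg and 2956 and 3673 in WT. The transgenic arrays were the 2 highest, and the log2 difference was 0.46 (SE 0.12; limma adjusted p = 0.522), against 0.11 for Actn3. Pdlim3, the actinin-associated LIM protein gene, was at 0.16, the capping protein gene Capzb at 0.09 and the LIM gene Lmcd1 at -0.15.

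Genes of the M-band and thick filament, at the other end of titin, numbered 10 tested of 16, with 0 called, 6 positive and 4 negative and a median of 0.05, which was -0.0031 without Lin28A Tg replicate 1 and up to 0.08 without WT replicate 2. Mybpc1, the slow myosin-binding protein C gene, was at 0.34 (SE 0.13). Mybpc2, the fast form, read 3927 and 722 in Lin28A Tg and 878 and 837 in WT, a log2 difference of 0.97 (SE 0.84) with Lin28A Tg replicate 1 as the 1 high array. Myom1, the myomesin gene, was at 0.09, and Trim54, a ubiquitin ligase gene of the MuRF family, at -0.24. Costamere genes, which tie the Z-disc to the membrane and matrix, numbered 16 tested of 21, with 0 called and 10 positive and 6 negative. Their median was 0.04. It ran from -0.02 to 0.09 with 1 array left out and was below 0 without Lin28A Tg replicate 1 or WT replicate 1. Of all genes, 0% were called, 53.5% were positive and 46.5% negative. The integrin gene Itga7 was at 0.36 (SE 0.06; limma adjusted p = 0.486), the dystroglycan gene Dag1 at 0.22, the sarcoglycan gene Sgca at -0.14 and the LIM gene Lims2 at -0.27.

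Calcineurin, NFAT and MEF2 genes, the pathway that myozenins restrain, numbered 10 tested of 12, with 0 called and 8 positive and 2 negative. Of all genes, 0% were called and 53.5% were positive. On both transgenic arrays 1 gene lay above WT, beside 21.8% of all genes, and 0 below (16.7%). The median was 0.03, and it was -0.03 without WT replicate 1 and 0.11 without WT replicate 2. The calcineurin regulatory subunit gene Ppp3r1 read 1873 and 1625 in Lin28A Tg and 1317 and 1384 in WT, a log2 difference of 0.37 (SE 0.09; limma adjusted p = 0.511). Both transgenic arrays were above both WT arrays. The catalytic subunit gene Ppp3ca was at 0.04, Mef2d at 0.06 and Rcan1, a calcineurin inhibitor that calcineurin itself induces, at -0.26.

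Genes known to respond to load and stretch in muscle or heart, other than the 10, numbered 14. Of these, 10 were tested, 0 were called, 8 were positive and 2 negative, and 5 lay above WT on both transgenic arrays. Of all genes, 53.5% were positive and 21.8% lay above WT on both. The median log2 difference was 0.71, 0.28 without WT replicate 1 and 1.33 without WT replicate 2. It was 0.06 when the 4 genes that did not pass the filter were counted too. The matricellular gene Ccn1, a target of YAP and TEAD, was at 0.70 (SE 0.08), the cardiac actin gene Actc1 at 1.12 and the immediate-early genes Egr1 and Fos at 2.11 and 2.65, with limma adjusted p-values of 0.486 to 0.548. WT replicate 1 read lowest for each of these 4, for instance 1774 for Actc1 against 3763 on WT replicate 2. The difference between this list and the ankyrin repeat genes was not tested.

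**Figure D4:**
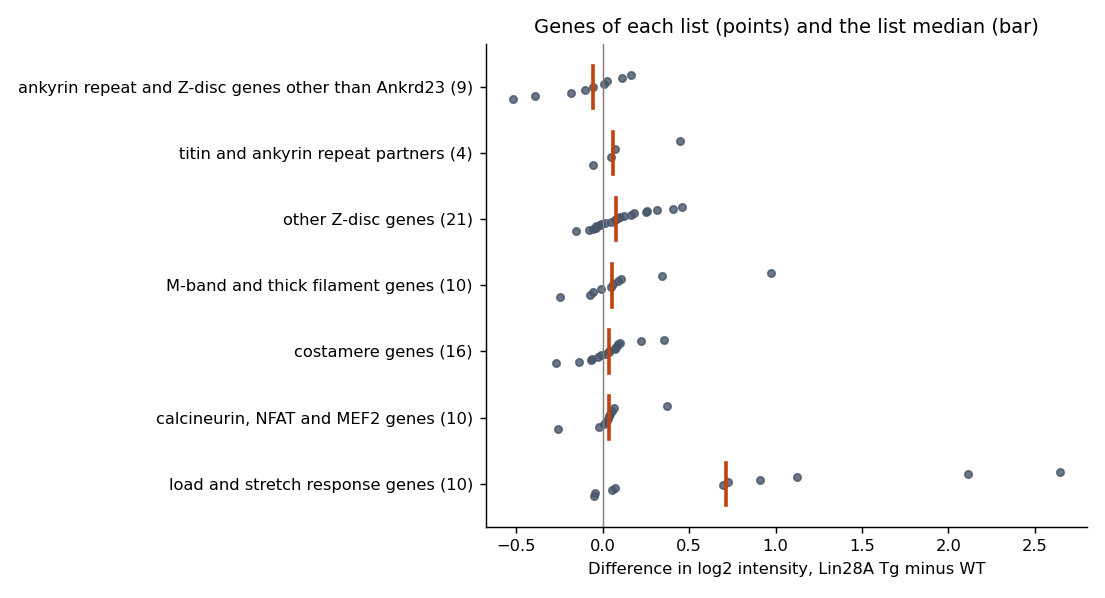
Difference in log2 intensity, Lin28A Tg minus WT, of each tested gene (points) of the 9 genes other than Ankrd23 and of 6 related lists, with a bar at each median and the number of genes in brackets. The median is -0.05 for the 9 genes, between 0.03 and 0.08 for 5 lists, and 0.71 for load and stretch response genes.

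Markers of other cells in the muscle were taken as a check. Adipocyte markers were tested for 6 of 10 genes, with a summed intensity of 7163 and 8536 in Lin28A Tg and 9212 and 6718 in WT. Smooth muscle and pericyte markers were tested for 9 of 10, at 2849.6 and 2151 in Lin28A Tg and 2300.2 and 2312 in WT. Tendon and fibroblast markers were tested for 10 of 12, at 9135 and 8553 in Lin28A Tg and 8648 and 7793 in WT. Bright genes dominate these sums, and single markers differed between the groups. Col1a1 read 1949 and 2010 in Lin28A Tg and 1044 and 1243 in WT, a log2 difference of 0.80. Acta2 was at 0.54 and Cidec at -0.32, and none of these markers was called. Median log2 differences were -0.17 for adipocyte, 0.04 for smooth muscle and pericyte and 0.05 for tendon and fibroblast markers. In that order, 2, 6 and 6 genes were positive and 4, 3 and 4 negative. Replicate 2 was higher than replicate 1 in both groups for 5 of the 10 tendon and fibroblast markers tested (Scx, Mkx, Comp, Fmod and Col1a1), 0 of 6 adipocyte and 0 of 9 smooth muscle and pericyte markers, beside 26.2% of all genes. Ankrd2, Csrp3 and Myoz2 were higher on the same arrays, and the part of tendon or fibroblast RNA in their values was not tested.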

How the data were processed

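Biotin-labelled cRNA from total RNA was read on Illumina Ref-8 bead arrays, per the labels. The deposited intensities are linear, 1 row per symbol. They were normalized between arrays before deposit, since the median difference between values of equal rank is 0.0916%, and no background was subtracted (lowest value 72.8). The software is not given in the sources used here. From a second table only probe annotation was taken: its 8 value columns have names found in no sample's labels.

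Of 18091 rows, 14090 had a current symbol and 3066 were updated through older names in RefSeq's gene table. Of rows sharing a symbol the brightest was kept. Background was the mode of all values, and genes above 90.3 (the mode plus 1.645 SD) on at least 2 arrays were tested. The model, fitted to log2 intensity, had the 2 groups as its terms (limma 3.58.1, lmFit and eBayes, R 4.3.3) and was tested on simulated data. There, 85.8% of changes of 1 log2 unit were called, with 8.85 false calls per run. The simulated noise was independent between genes and arrays and held no array with liver transcripts. These rates may therefore not hold for the 4 arrays. P-values were adjusted by Benjamini-Hochberg. Tables were handled in Python 3.11.15 with pandas 2.3.3.

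The 10 genes and the 13 lists were chosen with earlier results of these data known. The naming rule took the 10 genes, Lin28a, up to 4 tested genes per list of related genes by smallest p, and the 5 genes nearest in centred values to each of the 10 that spanned 0.5 log2 units. Myoz3, Jun, Ccn2, the marker genes and the genes outside the lists in the closing count were named after their values were seen. The alternatives added 16 to each intensity before log2, used no filter or a stricter one (94.9 on all 4 arrays), quantile-normalized or median-centred the arrays, applied normexp with offsets of 50 and 16, used trend and robust in eBayes, blocked by replicate number, set the threshold at 0.10, and left out each array.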

Additional observations from a re-analysis of the deposited data

How the results depend on the processing

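Over all genes, among the 9 genes other than Ankrd23 and over the gene lists, no alternative that kept all 4 arrays called a gene. With 1 array left out the count ran from 0 to 19 over all genes, from 0 to 5 over the lists and was 0 each time among the 9. The 19 came without WT replicate 2, where WT replicate 1 stands alone and is assumed to vary like the other group, and they include the liver transcripts Mup3, Fga and Apoa1. The 2 load and stretch response genes among them were Egr1 and Jun. Median centring took Ankrd1 to -0.0015. With 1 array left out the log2 difference ran from -0.12 to 0.14 for Ankrd1, -0.39 to 0.71 for Ankrd2, -0.16 to 0.055 for Myoz1, -0.070 to 0.12 for Ldb3 and -0.26 to 0.062 for Fhl1, so these 5 signs rest on single arrays. Ankrd23, Csrp3, Myoz2, Tcap and Actn3 kept their sign under every alternative run, with Ankrd23 at -0.65 to -0.44, Csrp3 at -0.84 to -0.20, Myoz2 at -0.72 to -0.06, Tcap at -0.31 to -0.05 and Actn3 at 0.03 to 0.20 with 1 array left out. For Ankrd23 and Actn3, whose groups did not overlap, and Tcap, whose groups only touched, leaving out 1 array could not turn the sign. In Ankrd23 that separation is the pattern for which the gene was chosen, so its kept sign is no support. Deviations of same-numbered arrays correlated at r = 0.037 across genes, which are not independent replicates. The labels do not say whether the numbers pair the arrays, and a correlation over all genes cannot decide it. With the replicate block the count of calls stayed at 0 over all genes and in the 9. Ankrd2 stayed at 0.16 (SE 0.10, limma adjusted p = 0.719). Csrp3 stayed at -0.52 (SE 0.08, limma adjusted p = 0.574) and Myoz2 at -0.39 (SE 0.06, limma adjusted p = 0.574). Of the 9, 2 had an unadjusted p under 0.05 in that fit and 2 without WT replicate 1, where 8.43% and 8.09% of all genes did, and 0 under the other settings. The strict filter left no hepatocyte marker to summarise. Readings near background, as for Ankrd1, Myoz2 and the WT values of Ccn1, understate differences.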

Other observations

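A count made after the values were seen asked how many genes share the pattern of Ankrd2 and Myoz2. Of 7779 tested genes, 34 (0.437%) were at least 0.5 log2 units higher on replicate 2 than on replicate 1 in both Lin28A Tg and WT, and 8 (0.103%) were at least that much lower in both. Of the 34, 2 were among the 10 genes, namely Ankrd2 and Myoz2, whose presence was fixed because they set the pattern. Among genes of the lists, the 34 also held the slow-fibre markers Myl2 and Myl3. Bag3, Hspb1 and Pdlim1 of the other Z-disc genes and Ccn2 of the load and stretch response genes were in it too. Outside the lists it held, among others, the heat shock and co-chaperone genes Hspa1a, Dnajb1, Hsph1 and Hspd1. Fbxo32, Ddit4, Irs2, Cebpb and Mt1 were also in it. What the 34 have in common was not tested. Nothing in the labels says whether the arrays of 1 number are tied to each other.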
